A study of Mus musculus with 2 samples.

Results

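Adipocyte spots are the places on 2 mouse skin sections at which the genes of fat cells took the largest share of the captured RNA. A spot is a barcoded dot of the capture array, wide enough to lie over several cells, and it was kept when it held at least 500 unique molecular identifiers (UMIs, the tags of single captured molecules). The kept spots of each section were ranked by the UMIs of 7 adipocyte markers, *Adipoq*, *Plin1*, *Fabp4*, *Cfd*, *Lpl*, *Cidec* and *Car3*, divided by all UMIs of the spot, and the 80 highest were taken. This gave 80 of 1096 kept spots (7.30%) in one section and 80 of 947 (8.45%) in the other, 160 of 2043 in all. These spots were selected on measured values, the UMIs of the 7 markers, so their marker levels and their difference from the other spots of the same section are given as a description and not as a test.

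The sections came from 1 *S1pr2 fl/fl* mouse and 1 *S1pr2 fl/fl* mouse that also carried *K14-Cre*, called the fl/fl and the K14-Cre section here. Both mice thus carried floxed alleles of *S1pr2*, a receptor for the lipid mediator sphingosine-1-phosphate, and the keratin 14 promoter drives Cre, and with it the deletion, in keratinocytes and not in fat. Both were 8 weeks old and received 62.5 mg of 5% imiquimod (IMQ) cream a day for 7 days on depilated back skin, a model of psoriasis, and no untreated section was used here. The sections were 10 μm thick, formalin-fixed and hybridized with probe pairs for mouse genes. The arrays share a layout of barcodes, and 357 barcodes of tissue spots occur in both sections. With 1 section per genotype no difference between them has a replicate check, spots of a section are not replicates, and no p-value is given. The design compares the genotypes, and for the adipocyte spots it allows the question of how the fat compartment of the treated skin read out in the 2 sections.

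White adipocytes store triglyceride in a single large droplet, take up fatty acids released from lipoproteins, make new fatty acids from glucose, and hydrolyse the store when catecholamines call for it. In mouse skin they form the dermal white adipose layer below the hair follicles, above a sheet of striated muscle, the panniculus carnosus, with subcutaneous fascia nearby. They also secrete hormones and immune proteins, among them adiponectin, resistin and the complement factor adipsin.

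In the fl/fl section 326735 UMIs lay in the adipocyte spots, which ranged from 531 to 11360 (median 3992), where the median of the remaining 1016 spots was 4341. In the K14-Cre section 257946 UMIs lay in them, ranging from 691 to 9512 (median 2764.5), where the median of the remaining 867 spots was 2341. The median number of genes detected per adipocyte spot was 2119 in the fl/fl and 1284.5 in the K14-Cre section. Sums of UMIs over spots are given as CPM, that is per 1000000 UMIs of the same spots, and 95% intervals cover counting error only. A CPM counts UMIs per gene without regard to gene or probe length, so levels of different genes are not compared. In spots of mixed tissue, fewer cells of a type and less RNA per cell cannot be told apart. A count of 0 allows up to 3 UMIs.

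The targeted gene was rare in these spots. *S1pr2* gave 14 UMIs in the fl/fl adipocyte spots and 3 in the K14-Cre ones, 42.8 and 11.6 CPM, a log2 ratio of −1.88 (−4.32 to −0.04). In the remaining spots, which hold the epidermis, it had 28.1 and 19.8 CPM, a log2 ratio of −0.51 (−0.999 to −0.03). The deletion is confined to keratinocytes by design, so the level in fat does not check the genotype.

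The markers that chose the spots were present together. At least 5 of the 7 were detected in 62 of the 80 spots of the fl/fl section and in 66 of the 80 of the K14-Cre section. *Adipoq* (adiponectin), *Plin1* (the perilipin that coats the adipocyte droplet) or *Cidec* (which enlarges the droplet) gave a UMI in 69 fl/fl adipocyte spots (86.3%) and 68 K14-Cre adipocyte spots (85.0%). The share was 33.2% and 21.9% in the remaining spots. In the 80 spots highest for epidermis genes, which should lack these RNAs, it was 1.25% and 5.00%, at a median of 2849.5 and 2616 UMIs per spot. These 3 RNAs are among the 7 that ranked the spots, so the shares describe the choice, and 11 and 12 of the 80 spots held none of them.

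*Car3*, carbonic anhydrase 3, is abundant in both fat and skeletal muscle. It gave 29.5% of the marker UMIs in the fl/fl adipocyte spots and 44.5% in the K14-Cre ones, and it gave most of the marker UMIs in 7 and 28 spots. The 7 markers together took 1.25% of a spot's UMIs at the median in the fl/fl adipocyte spots and 2.60% in the K14-Cre ones, against 0.146% and 0.339% in the remaining spots. The limits of the choice were not gaps: the last spot inside had 0.943% and the first outside 0.942% in the fl/fl section, and 1.99% and 1.96% in the K14-Cre section. Ranked without *Car3*, 65 and 63 of the 80 spots stayed, and ranked by *Adipoq*, *Plin1* and *Cidec* alone 33 and 42 stayed.

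**Figure D1:**
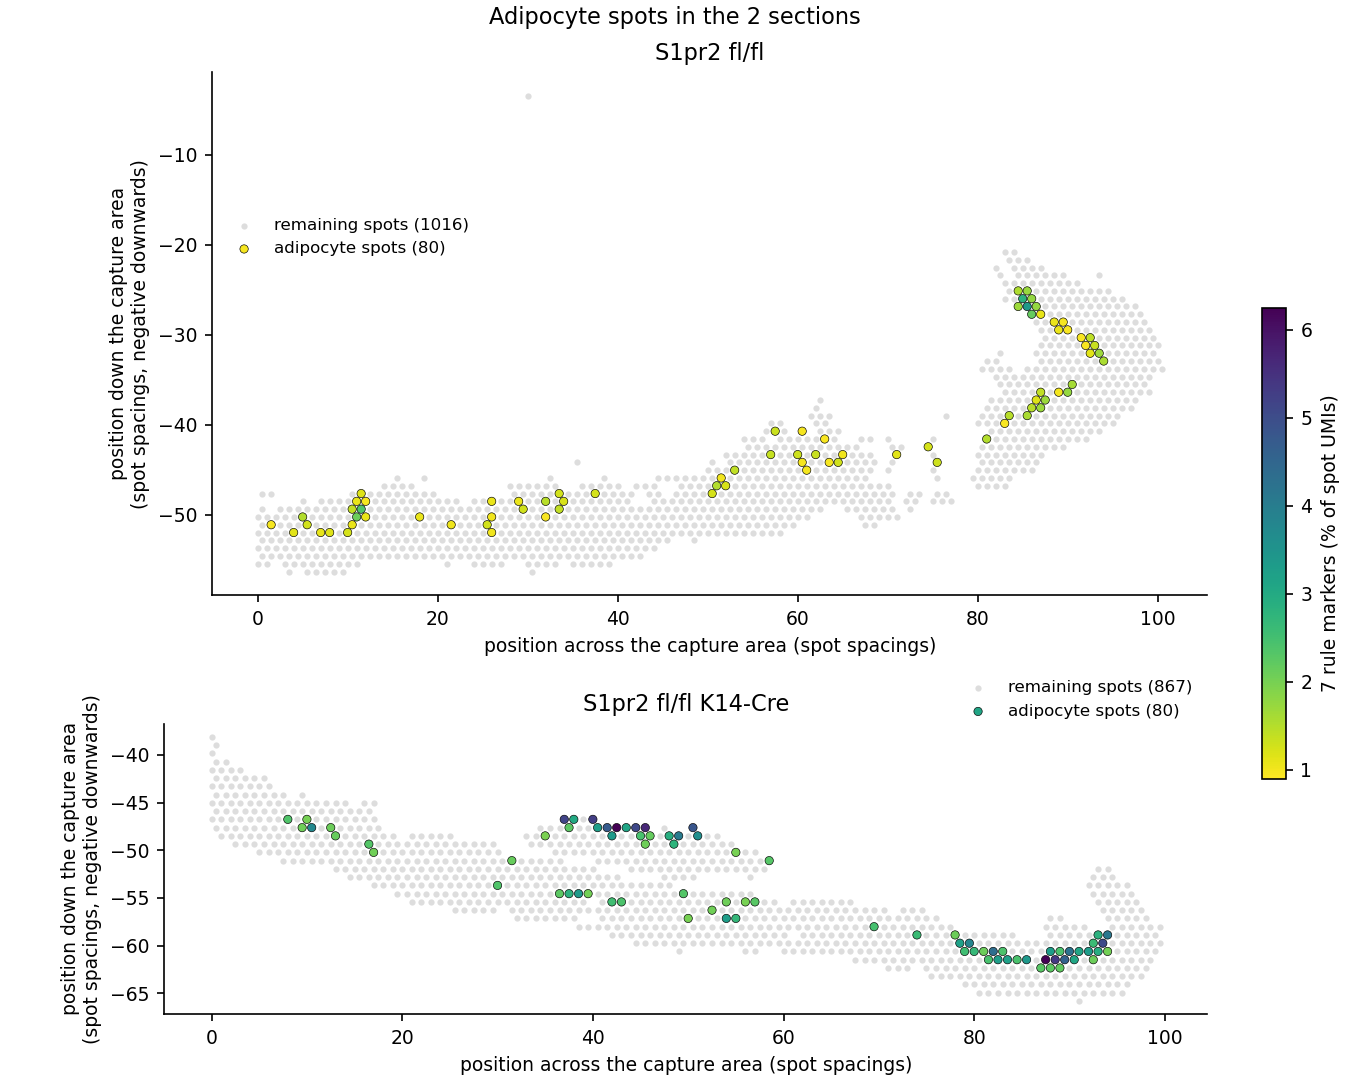
Position of every kept spot on the array in the 2 sections, in units of the distance between neighbouring spots; adipocyte spots are outlined and coloured by the percentage of their UMIs from the 7 rule markers, and remaining spots are grey. The adipocyte spots run in broken lines along the tissue, and the highest shares, up to 6.25%, are in the K14-Cre section, where the fl/fl section reaches 3.37%.

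The spots formed short rows and not a closed sheet. In the fl/fl section they fell into 33 connected pieces, the largest of 9 spots, and 18 stood alone. In the K14-Cre section they fell into 25 pieces, of which the largest held 19, 13 and 11 spots, and 12 stood alone. Counted over the neighbouring kept spots of each adipocyte spot in turn, 30.6% of neighbours were adipocyte spots in the fl/fl section and 38.5% in the K14-Cre section, where 7.21% and 8.35% of all other kept spots were.

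Of the 7 markers and the 20 genes highest in the adipocyte spots (described further on), 14 genes have a promoter, 16 promoters in all, in the RefSeq table used here (build GRCm38.p6, 250 bases before to 50 bases from a transcript start). These genes were read out together in the same spots, so 4 of their promoters are shown: *Adipoq* and *Plin1* among the markers, and *Cyp2e1* and *Fasn* among the other genes. Capitals mark the letters of the C/EBP core TTGCNNAA, the binding motif of a factor family that drives adipocyte differentiation, and of the CCAAT box, which reads CCAAT or, on the other strand, ATTGG. Both motifs were searched on both strands, and no base of the 4 windows lies in both. The motif letters and the 4 promoters were chosen after the matches were seen, and a match is not a shown site.
Adipoq, chr16:23146286-23146585, + strand: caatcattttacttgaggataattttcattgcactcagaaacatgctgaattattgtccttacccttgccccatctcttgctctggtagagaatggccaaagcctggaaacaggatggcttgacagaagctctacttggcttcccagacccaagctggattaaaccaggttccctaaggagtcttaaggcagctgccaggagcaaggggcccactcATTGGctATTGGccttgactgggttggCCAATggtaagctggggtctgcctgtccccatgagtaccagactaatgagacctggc
Plin1, chr7:79732727-79733026, - strand: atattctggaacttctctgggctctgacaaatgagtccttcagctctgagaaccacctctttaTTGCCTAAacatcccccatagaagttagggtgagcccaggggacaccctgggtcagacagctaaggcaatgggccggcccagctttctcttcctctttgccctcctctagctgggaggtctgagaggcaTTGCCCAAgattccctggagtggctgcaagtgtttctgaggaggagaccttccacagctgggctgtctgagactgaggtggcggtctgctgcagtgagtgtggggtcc
Cyp2e1, chr7:140763569-140763868, + strand: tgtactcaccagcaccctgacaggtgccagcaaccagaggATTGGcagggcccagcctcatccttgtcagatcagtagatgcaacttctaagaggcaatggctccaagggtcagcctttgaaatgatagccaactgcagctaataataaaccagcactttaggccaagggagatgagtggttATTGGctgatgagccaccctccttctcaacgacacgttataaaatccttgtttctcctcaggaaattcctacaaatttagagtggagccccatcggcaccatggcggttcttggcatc
Fasn, chr11:120824498-120824797, - strand: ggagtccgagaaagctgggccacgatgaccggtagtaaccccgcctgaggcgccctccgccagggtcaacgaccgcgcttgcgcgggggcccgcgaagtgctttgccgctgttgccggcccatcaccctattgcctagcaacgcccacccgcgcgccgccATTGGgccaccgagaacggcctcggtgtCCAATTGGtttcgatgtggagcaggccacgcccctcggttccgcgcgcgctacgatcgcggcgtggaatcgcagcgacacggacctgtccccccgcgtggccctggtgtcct

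In *Adipoq* the CCAAT letters begin 34, 27 and 7 bases before the start, and in *Fasn* 90, 62 and 59 bases before it. *Plin1* has no CCAAT box in the window but 2 C/EBP cores, 187 and 58 bases before the start. CCAAT was present in 8 of the 16 promoters (50%), against 37.4% of the 32851 promoters of the table, and TTGCNNAA in 2 of 16 (12.5%), those of *Plin1* and *Cidec*, against 10.8%. The nuclear receptor half-site AGGTCA, searched on both strands, was present in 1 of 16 (6.25%), that of *Pcx*, against 16.3%. These shares describe the letters in these windows and nothing about binding.

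Adipocyte genes that took no part in the ranking followed the markers. A list of 24 genes of mature white adipocytes took 5093 CPM in the fl/fl adipocyte spots against 1801 in the remaining spots, a log2 ratio of 1.5 (1.42 to 1.58), and 7180 against 1654 CPM in the K14-Cre section, a log2 ratio of 2.12 (2.04 to 2.20). A gene is called higher or lower here when its summed CPM differs at least 2-fold and the interval leaves out no change, among genes with at least 100 UMIs over the kept spots of the section. By this measure 12 of the 15 tested genes of the list were higher in the fl/fl section, where 6.48% of all 8461 tested genes were, and 14 of 14 in the K14-Cre section, where 5.42% of 5755 were. The median log2 ratio of the tested list genes was 1.61 and 2.06, against 0.09 and −0.02 over all tested genes. The same spots chose the contrast, so these counts describe what was chosen along with the markers. The shares of all tested genes, 6.48% and 5.42% higher and 7.61% and 13.5% lower, belong beside every later count of called genes. In a list of few genes a count of 1 is little above what they give.

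**Figure D2:**
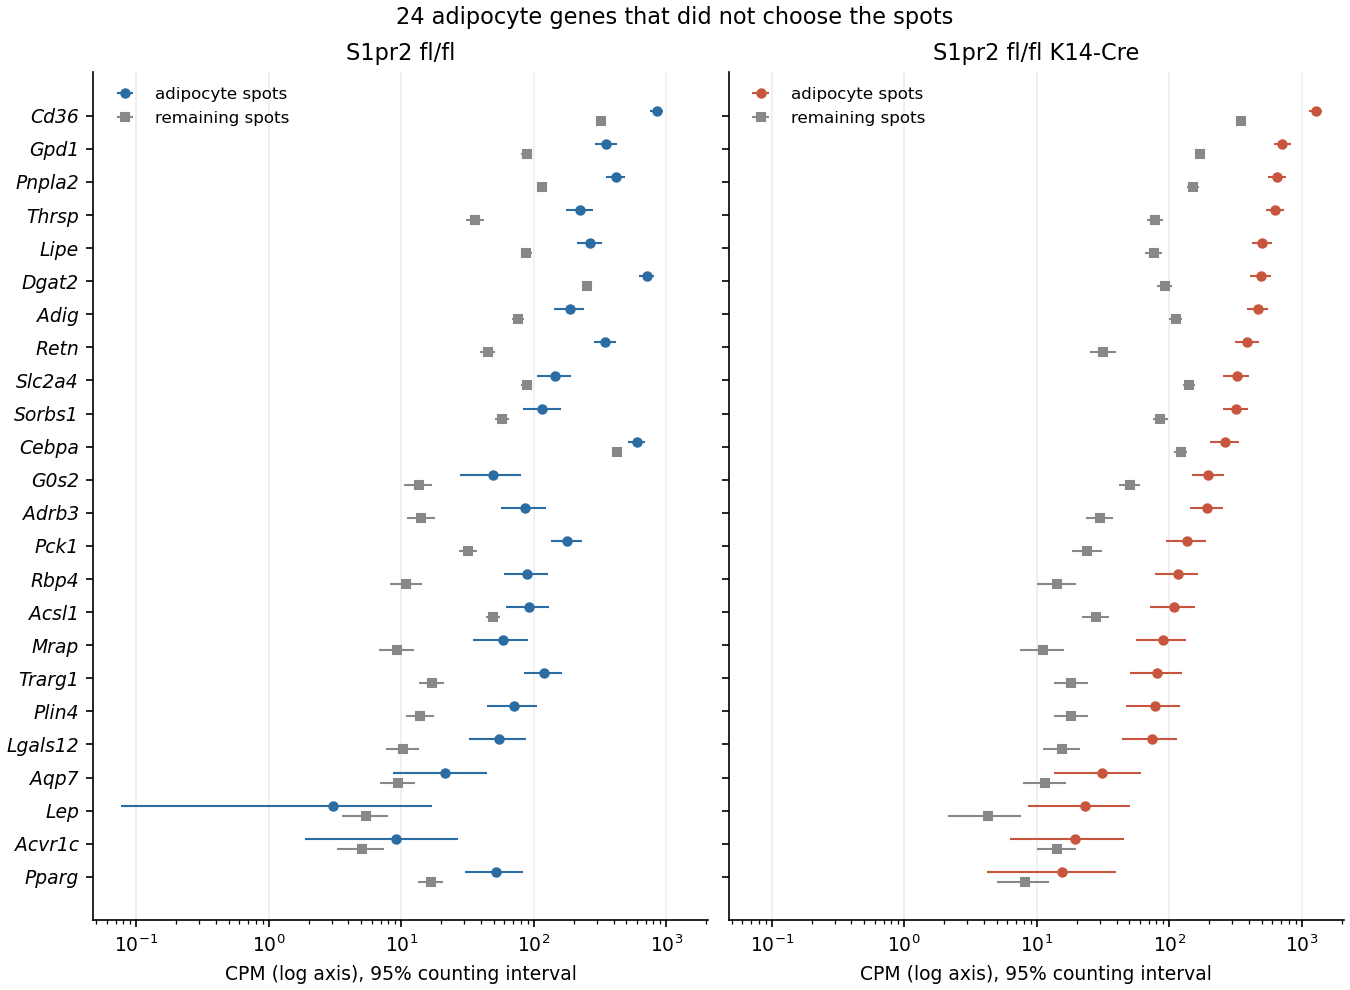
CPM (log axis, bars are 95% counting intervals) of the 24 adipocyte genes that did not rank the spots, in adipocyte spots (coloured circles) and remaining spots (grey squares) of each section. *Cd36* lies at 845 CPM in the fl/fl and 1275 CPM in the K14-Cre adipocyte spots, and only *Lep* in the fl/fl section lies below its remaining spots, on 1 UMI.

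*Retn*, which encodes the hormone resistin, had 346 CPM in the fl/fl adipocyte spots against 44.9 in the remaining spots, and 388 against 31.8 in the K14-Cre section. Among the genes ranked, outside the 7 markers and with at least 100 UMIs in each section, it had the largest smaller ratio of both sections. Its log2 ratios were 2.95 (2.61 to 3.28) and 3.61 (3.17 to 4.05), and it was detected in 46 and 44 spots. *Lep*, the satiety hormone leptin, was near the limit of detection, with 1 UMI in the fl/fl and 6 UMIs in the K14-Cre adipocyte spots. *Rbp4*, a retinol carrier secreted by fat and liver, had 88.8 against 10.9 CPM and 116 against 14.3 CPM, on 29 and 30 UMIs. Over 11 secreted proteins of fat, 3 of 8 tested genes were higher in the fl/fl section and 3 of 6 in the K14-Cre section, *Retn* and *Agt* (angiotensinogen) in both. *Nrg4*, a secreted growth factor, was the other one in the fl/fl section and *Lcn2*, lipocalin 2, in the K14-Cre section. *Lcn2* had 392 CPM in the fl/fl adipocyte spots against 394 in the remaining ones, and 539 against 238 in the K14-Cre section. *Saa3*, an acute-phase protein, gave the most UMIs of this list in the fl/fl spots, at 1558 against 964 CPM, with 477 against 288 CPM in the K14-Cre section.

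Most tested genes for the synthesis of fatty acids and triglyceride were higher in these spots in both sections. The 20 genes of the list in the files summed to 7749 CPM against 3020 in the fl/fl section and 10514 against 2939 in the K14-Cre section, with log2 ratios of 1.36 (1.30 to 1.42) and 1.84 (1.77 to 1.90). Of these genes 12 of 19 tested were higher in the fl/fl section and 12 of 18 in the K14-Cre section, and none was lower. *Fasn*, the fatty acid synthase, had 1454 against 348 CPM in the fl/fl section and 2237 against 337 CPM in the K14-Cre section, log2 ratios of 2.06 (1.91 to 2.21) and 2.73 (2.57 to 2.88). *Thrsp*, a nuclear protein that accompanies lipogenesis, had 223 against 36.2 CPM and 632 against 77.9 CPM.

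The steps before and after fatty acid synthase were read out as well. *Acaca*, which makes the malonyl-CoA that the synthase uses, had 297 against 120 CPM in the fl/fl section and 430 against 93.1 in the K14-Cre section. *Pcx*, pyruvate carboxylase, had 707 against 192 CPM and 1144 against 217 CPM. *Scd1*, the desaturase, had 1570 against 707 CPM and 2093 against 801 CPM, and its log2 ratios of 1.15 and 1.39 were smaller than those of *Fasn*. *Gpd1*, which makes the glycerol backbone of triglyceride, *Agpat2*, an acyltransferase, and *Dgat2*, which adds the last acyl chain, were higher in both sections. *Gpam*, the first acyltransferase, with log2 ratios of 0.86 and 0.75, and *Dgat1*, with 0.43 and 0.51, were called in neither, and *Lpin1*, a phosphatase of the pathway, was called in the fl/fl section. *Dgat2* had 716 against 252 CPM in the fl/fl section and 488 against 92.3 in the K14-Cre section. The transcription factor *Srebf1*, which drives lipogenic genes in liver and fat, was called neither higher nor lower in either section, at 129 against 117 CPM and 89.2 against 115 CPM.

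Genes of lipolysis were higher too, 4 of 7 tested in the fl/fl and 6 of 7 in the K14-Cre section. *Pnpla2*, the lipase of the first step, had 416 against 115 CPM in the fl/fl section and 647 against 150 CPM in the K14-Cre section. *Lipe*, hormone-sensitive lipase, had 266 against 87.9 CPM and 504 against 76.4 CPM. The lipase of the last step, *Mgll*, was called in neither section, at 205 against 280 CPM and 128 against 142 CPM. *Adrb3*, the catecholamine receptor typical of adipocytes, had 85.7 against 14.1 CPM on 28 UMIs in the fl/fl section, where it was too low to be tested, and 194 against 29.9 CPM on 50 UMIs in the K14-Cre section. *Pde3b*, the phosphodiesterase through which insulin restrains lipolysis, was higher in the fl/fl section at 107 against 16.8 CPM, and had 42.6 against 30.6 CPM on 11 UMIs in the K14-Cre section.

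Droplet and uptake genes were mixed. Of 9 tested droplet genes outside the rule, 1 was higher in the fl/fl section, *Cav1*, the caveolin of the adipocyte membrane. In the K14-Cre section 4 of 9 were higher, *Cav1*, *G0s2*, *Bscl2* and *Abhd5*. Over all tested genes 6.48% and 5.42% were higher. *Plin2*, the droplet coat of many cell types, had 331 against 270.0 CPM in the fl/fl section and 167 against 152 CPM in the K14-Cre section and was called in neither. The 11 genes of fatty acid uptake summed to less in the adipocyte than in the remaining spots, with log2 ratios of −0.83 and −0.62, while the median over their tested genes was 0.87 and 0.15. One gene carries the sum: *Fabp5*, the fatty acid binding protein of keratinocytes, had 1992 against 5857 CPM in the fl/fl section and 368 against 3541 CPM in the K14-Cre section. *Cd36*, the fatty acid translocase, was higher in both sections, at 845 against 325 CPM and 1275 against 346 CPM, and so was the transporter *Slc27a1*, at 395 against 147 CPM and 671 against 144 CPM. Its relative *Slc27a4*, the transporter of the epidermis, was lower in both. *Fabp3*, another gene of the list, was higher in the fl/fl section, at 150 against 72.4 CPM. In the K14-Cre section it was lower, at 42.6 against 92.7 CPM on 11 UMIs. Of the tested uptake genes 3 of 9 were higher and 2 lower in the fl/fl section. In the K14-Cre section 3 of 8 were higher and 3 lower.

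The 11 transcription factors of the adipocyte state summed to 1809 against 1716 CPM in the fl/fl section and 1485 against 1303 in the K14-Cre section, with the most UMIs from *Cebpa* in the fl/fl and *Cebpb* in the K14-Cre spots, while the median log2 ratio of those tested was 0.51 and 0.64. Of those tested, 3 of 9 were higher in the fl/fl section and 3 of 8 in the K14-Cre section, with *Klf15* and *Ebf1* in both. *Pparg*, the master regulator, had 17 UMIs in the fl/fl adipocyte spots, 52.0 against 16.8 CPM, and 4 UMIs in the K14-Cre spots. *Cebpa*, which maintains the mature adipocyte, had 600 against 422 CPM in the fl/fl section and 264 against 123 CPM in the K14-Cre section. Genes of insulin action and glucose uptake had log2 ratios of 0.85 and 1.12, with 3 of 9 higher in the fl/fl section and 3 of 7 higher and 1 lower, *Irs2*, in the K14-Cre section. *Slc2a4*, the insulin-responsive glucose transporter of fat and muscle, had 144 against 88.3 CPM and 322 against 140 CPM.

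Genes of thermogenic fat did not stand out. *Ucp1*, the uncoupling protein that defines brown and beige adipocytes, had 2 UMIs in the fl/fl and 1 in the K14-Cre adipocyte spots. *Dio2* had 8 and 0 UMIs, *Ppargc1a* 1 and 0, and *Prdm16* 2 and 4. The 8 genes summed to 401 against 357 CPM and 884 against 672 CPM, and none of the 4 and 2 that could be tested was called. Of this sum 98 of the 131 fl/fl UMIs and 213 of the 228 K14-Cre UMIs came from *Cox7a1* and *Cox8b*, subunits of a respiratory enzyme that skeletal muscle shares.

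The 5577 genes ranked all lay outside the 7 markers and had at least 100 UMIs over the kept spots of each section. Among them the 20 with the largest smaller ratio of both sections were led by *Retn*, *Hp*, *Cdo1*, *Thrsp* and *Cyp2e1*. *Hp*, the haemoglobin scavenger haptoglobin, had 2231 against 325 CPM in the fl/fl section and 2132 against 238 CPM in the K14-Cre section, log2 ratios of 2.78 (2.65 to 2.91) and 3.16 (2.99 to 3.33). *Cdo1*, which degrades cysteine, had 481 against 77.4 CPM and 806 against 86.9 CPM. *Cyp2e1*, a cytochrome P450 better known from liver, had 168 against 30.3 CPM and 740 against 79.5 CPM, and was detected in 29 and 55 of the 80 spots.

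Other members of these 20 were *Trf*, the iron carrier transferrin, at 655 against 141 CPM and 923 against 154 CPM, and *Lrg1*, a secreted leucine-rich glycoprotein, at 496 against 112 CPM and 465 against 117 CPM. *Ptger3*, a receptor for prostaglandin E2 that restrains lipolysis, had 91.8 against 21.4 CPM and 163 against 38.8 CPM. *Ifi27l2a*, an interferon-induced gene, had 637 against 130 CPM in the fl/fl section and 388 against 105 CPM in the K14-Cre section. The remaining genes were *Wfdc21*, *Rasd1*, *Fasn*, *Glb1l2*, *Gpd1*, *Slc1a5*, *Pcx*, *Chpt1*, *Pnpla2*, *Nnmt* and *Agpat2*, among them *Slc1a5*, a glutamine transporter, *Chpt1*, which makes phosphatidylcholine, and *Nnmt*, which methylates nicotinamide. Of 5653 genes tested in both sections, 352 were higher in the fl/fl adipocyte spots and 303 in the K14-Cre ones, with 102 in both lists (29.0% and 33.7% of each). Over all genes tested in each section 548 and 312 were higher. When sums were scaled by edgeR's TMM factor in place of all UMIs these counts were 301 and 479, so their order depends on the scaling.

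In the fl/fl adipocyte spots 7.61% of the tested genes were lower, and in the K14-Cre ones 13.5% (644 and 776 genes, or 940 and 641 when sums were scaled by edgeR's TMM factor in place of all UMIs), and 242 were lower in both (62.7% and 32.0% of those lists among the genes tested in both). The 10 genes lowest in both sections were *Birc5*, *Dsg1a*, *Il1f6*, *Adgrf4*, *Ccdc120*, *Cldn1*, *Duox1*, *Pif1*, *Tmem154* and *Lce3a*. *Birc5*, which guards chromosome segregation in dividing cells, had 2 UMIs in each set of adipocyte spots, 6.12 against 44.7 CPM and 7.75 against 58.2 CPM. *Dsg1a*, a desmoglein of keratinocyte junctions, had 49.0 against 262 CPM and 3.88 against 60.9 CPM.

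The 14 epidermis genes summed to 21118 CPM in the fl/fl adipocyte spots and 3129 in the K14-Cre ones, log2 ratios to the remaining spots of −1.53 (−1.56 to −1.49) and −2.64 (−2.75 to −2.54). *Krt14*, the keratin of basal keratinocytes, gave the most UMIs of them, at 6843 against 16389 CPM and 1070 against 7881 CPM. *Sfn* in the fl/fl and *Ivl* and *Perp* in the K14-Cre adipocyte spots were at 0. None of the adipocyte spots was among the 80 highest for epidermis genes in its section. The source of this RNA was not tested.

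**Figure D3:**
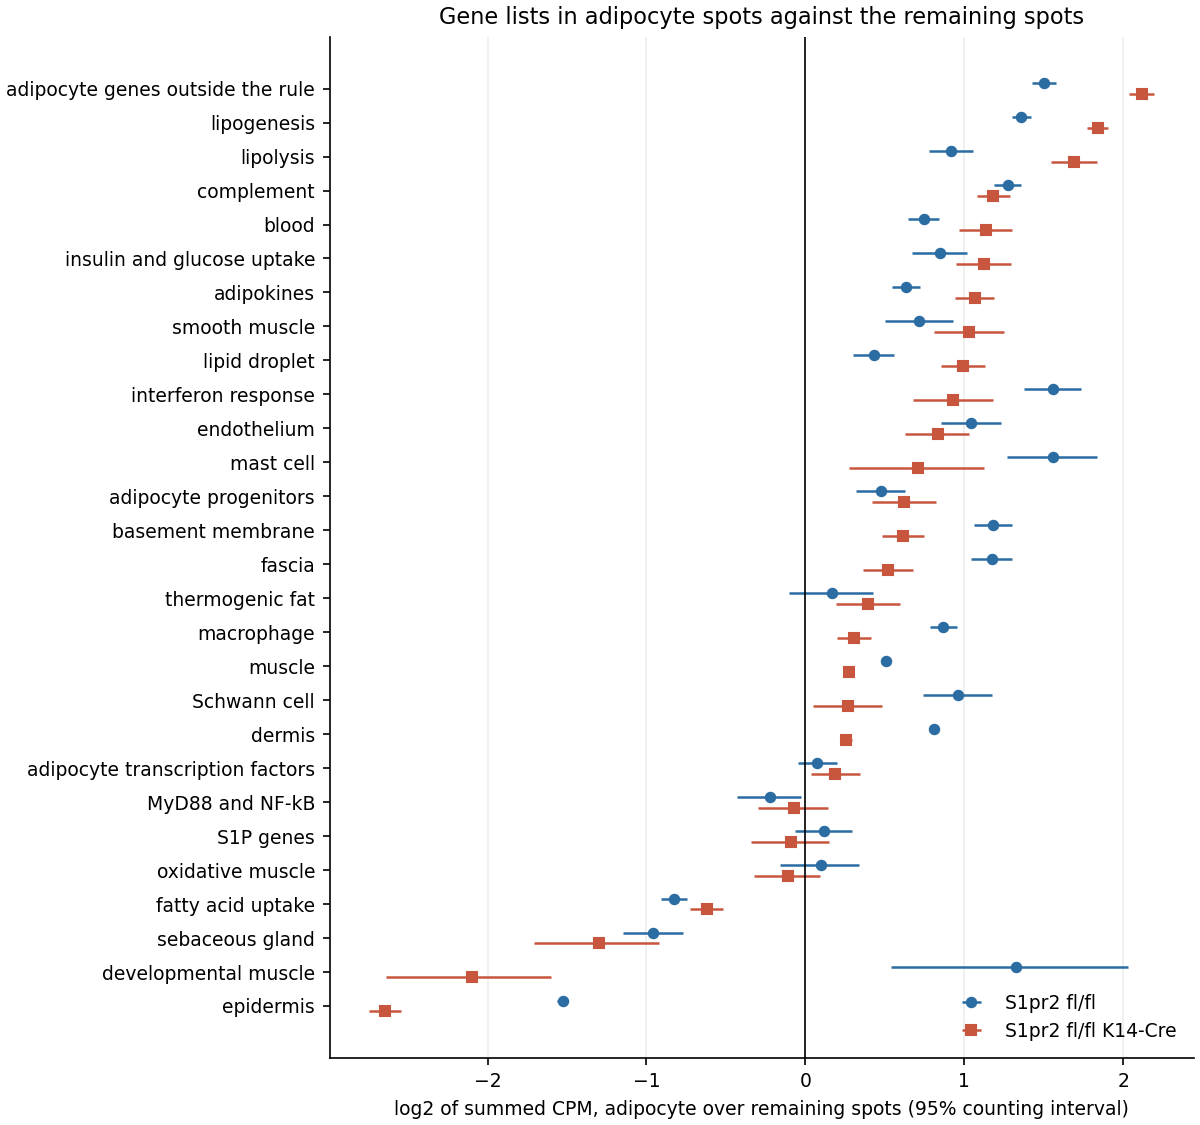
Log2 ratio of summed CPM between adipocyte and remaining spots for the gene lists (bars are 95% counting intervals), circles for the fl/fl and squares for the K14-Cre section. Epidermis lies lowest at −1.53 and −2.64, adipocyte genes outside the rule at 1.5 and 2.12, and the developmental muscle genes lie on opposite sides at 1.32 and −2.10.

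The adipocyte spots also held RNA of vessels. Of the tested endothelial genes 4 of 8 were higher in the fl/fl section and 1 of 5 in the K14-Cre section. Over all tested genes the shares were 6.48% and 5.42%. The 10 endothelial genes summed to 790 against 383 CPM in the fl/fl and 930 against 523 CPM in the K14-Cre section, log2 ratios of 1.04 (0.85 to 1.23) and 0.83 (0.63 to 1.03). *Plvap*, of fenestrated capillaries, gave the most UMIs in both and was called in neither, and 13 and 14 of the adipocyte spots were also among the 80 highest for these genes. Haemoglobin and platelet genes summed to 2880 against 1720 CPM and 1365 against 621 CPM, and 1 of 4 tested was higher in the fl/fl section, *Hbb-bt*, and 2 of 3 in the K14-Cre section, *Hbb-bs* and *Hba-a2*, all of them globins. In the K14-Cre spots 73 of the 352 blood UMIs lay in 1 spot, and without it the log2 ratio was 0.83 in place of 1.14.

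Matrix genes had larger ratios to the remaining spots in the fl/fl section, while their levels in the adipocyte spots lay closer together, with basement membrane genes at 2112 CPM in the fl/fl and 2128 CPM in the K14-Cre spots, and 931 and 1390.2 CPM in the remaining spots. Basement membrane genes, whose products wrap each adipocyte and vessel, had log2 ratios of 1.18 (1.06 to 1.30) and 0.61 (0.48 to 0.74), and 6 of 9 and 2 of 9 were higher. Fascia genes had 1.17 (1.04 to 1.30) and 0.52 (0.36 to 0.68), with 5 of 8 and 1 of 8 higher. *Fbn1*, the microfibril protein fibrillin, had 575 against 216 CPM in the fl/fl section and 314 against 298 in the K14-Cre section. Dermal collagen and proteoglycan genes summed to 26119 against 14901 CPM and 24249 against 20275 CPM. Of 9 tested, 2 were higher in the fl/fl section, *Dpt* and *Sparc*, and 0 in the K14-Cre section. Over all tested genes 6.48% and 5.42% were higher. The difference between the 2 log2 ratios of each list was not tested.

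The 9 fast muscle genes summed to 29314 against 20612 CPM in the fl/fl section and 84068 against 69361 in the K14-Cre section, log2 ratios of 0.51 and 0.28. *Acta1*, skeletal actin, gave the most of these UMIs, and none of the 9 was called in either section. When the spots were ranked without *Car3* the K14-Cre value turned to −0.20 and the fl/fl value was 0.43. Of the adipocyte spots, 3 and 7 were also among the 80 highest for these genes. The part of muscle RNA in the level of *Car3* was not tested.

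Developmental muscle genes were few, and their direction in the fl/fl section depended on how the spots were ranked. They had 58.2 against 23.2 CPM in the fl/fl section, on 19 UMIs in 9 spots, a log2 ratio of 1.32 (0.54 to 2.03), and 0.91 (−0.01 to 1.71) without the spot that held 5 of them. Ranked by *Adipoq*, *Plin1* and *Cidec* alone, the fl/fl ratio was −1.20. In the K14-Cre section they had 128 against 548 CPM, a log2 ratio of −2.10 (−2.64 to −1.60), and 4 of 5 tested genes were lower. *Myh8*, the perinatal myosin, gave 11 UMIs in the fl/fl spots and 9 in the K14-Cre spots, where the remaining spots had 2.63 and 186 CPM. The difference was not tested.

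Other cell types were mixed. Progenitors of adipocytes had log2 ratios of 0.47 (0.32 to 0.63) and 0.62 (0.42 to 0.82), with *Cd34*, *Ly6a* and *F3* higher and *Cd24a* lower in the fl/fl section, and *Pi16* higher in the K14-Cre section. Schwann cell genes had 0.96 in the fl/fl and 0.27 in the K14-Cre section. Smooth muscle genes had 0.72 and 1.03, with *Acta2*, the smooth muscle actin, at 162 against 82.5 CPM and 136 against 49.2 CPM. Sebaceous gland genes had −0.96 and −1.30, and hair follicle genes held 5 and 8 UMIs. Oxidative muscle genes had 441 against 412 CPM and 814 against 879 CPM, and both intervals include no change.

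Complement genes accompanied the adipocyte genes. Besides *Cfd*, the adipsin used in the ranking, 5 of 8 tested complement genes were higher in the fl/fl section and 4 of 8 in the K14-Cre section. The list summed to 4147 against 1715 CPM and 3621 against 1594 CPM, log2 ratios of 1.27 (1.19 to 1.36) and 1.18 (1.08 to 1.29). *C3*, on which the pathways converge, had 1647 against 494 CPM in the fl/fl section and 1729 against 583 in the K14-Cre section. *Cfb*, which adipsin cleaves, had 202 against 76.6 CPM and 171 against 58.2 CPM, and *C4b* had 1191 against 590 CPM and 841 against 391 CPM. These 3 genes were higher in both sections.

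Macrophage genes, several of which encode complement C1q, summed to 3712 against 2033 CPM in the fl/fl section and 3047 against 2464 CPM in the K14-Cre section. *Cd163*, a scavenger receptor of resident macrophages, was higher in both, at 370.3 against 153 CPM and 256 against 126 CPM, and *C1qc* had 848 against 380 CPM and 628 against 463 CPM and was called in the fl/fl section. In all 2 of 9 tested macrophage genes were higher in the fl/fl and 1 of 8 in the K14-Cre section. Over all tested genes 6.48% and 5.42% were higher. In the K14-Cre section *C1qa* and *C1qb* had log2 ratios of 0.07 and 0.17. Mast cell genes had 380 against 129 CPM in the fl/fl section, with *Cma1*, a chymase, at 208 against 45.9 CPM, and 213 against 130.3 CPM on 55 UMIs in the K14-Cre section. Their UMIs lay in 38 fl/fl adipocyte spots, and *Ms4a2*, part of the IgE receptor, was at 0 in the adipocyte spots of both sections. Neutrophil genes gave 41 UMIs in the fl/fl and 15 in the K14-Cre adipocyte spots, 125 against 91.8 CPM and 58.2 against 86.1 CPM, and both intervals of the ratio include no change. Of the fl/fl UMIs 33 came from *Csf3r*, a growth factor receptor, which was higher at 101 against 48.7 CPM. Of the 2 genes tested in that section the other, *Cxcr2*, was lower, with 0 UMIs against 28.5 CPM.

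The inflammatory cytokine genes listed here were at low levels in adipocyte and remaining spots. The 9 cytokine genes held 21 UMIs in the fl/fl and 23 in the K14-Cre adipocyte spots, 64.3 against 68.7 CPM and 89.2 against 107 CPM, and *Il17a* held 2 and 1. The 8 genes of the MyD88 and NF-kB pathway, through which the IMQ sensor TLR7 signals, had 652 against 761 CPM and 721 against 759 CPM. None of the 7 tested was called in the fl/fl section, and *Nfkbia*, the NF-kB inhibitor, was lower in the K14-Cre section at 31.0 against 71.4 CPM. Interferon response genes had 937 against 318 CPM and 601 against 315 CPM, of which *Ifi27l2a* gave 208 of 306 and 100 of 155 UMIs. *Ifit1*, *Ifit3*, *Rsad2* and *Usp18*, interferon targets of the classical kind, held 1, 6, 5 and 10 UMIs in the fl/fl adipocyte spots and 0 in the K14-Cre ones. The 10 genes of sphingosine-1-phosphate signalling had log2 ratios of 0.12 (−0.06 to 0.29) and −0.09 (−0.34 to 0.15). Of 8 tested in the fl/fl section 1 was higher and 3 were lower. Of 5 tested in the K14-Cre section 0 were higher and 1 was lower. Over all tested genes 6.48% were higher and 7.61% lower in the fl/fl section, and 5.42% and 13.5% in the K14-Cre section. *Sphk1*, the kinase that makes the mediator, was lower in both sections, with 30.6 against 71.1 CPM in the fl/fl section and 0 UMIs against 43.0 CPM in the K14-Cre section. *S1pr1*, the receptor of endothelium and lymphocytes, was higher in the fl/fl section, at 67.3 against 26.5 CPM, and had 31.0 against 31.4 CPM in the K14-Cre section.

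Levels of adipocyte, muscle and epidermis genes by distance from the adipocyte spots had the same order in both sections, and those of dermis and fascia genes did not. The 24 adipocyte genes had 5093 CPM in the fl/fl adipocyte spots, 2697 in the 215 spots 1 grid step away, 2082 in the 211 spots 2 steps away and 1445 in the 590 spots beyond. In the K14-Cre section these values were 7180, 2841 in 183 spots, 1909 in 203 and 1085 in 481. Fat RNA was therefore also in the ring around the chosen spots, which counts among the remaining spots. When that ring was left out, the log2 ratio of the 24 genes was 1.67 in the fl/fl and 2.44 in the K14-Cre section.

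**Figure D4:**
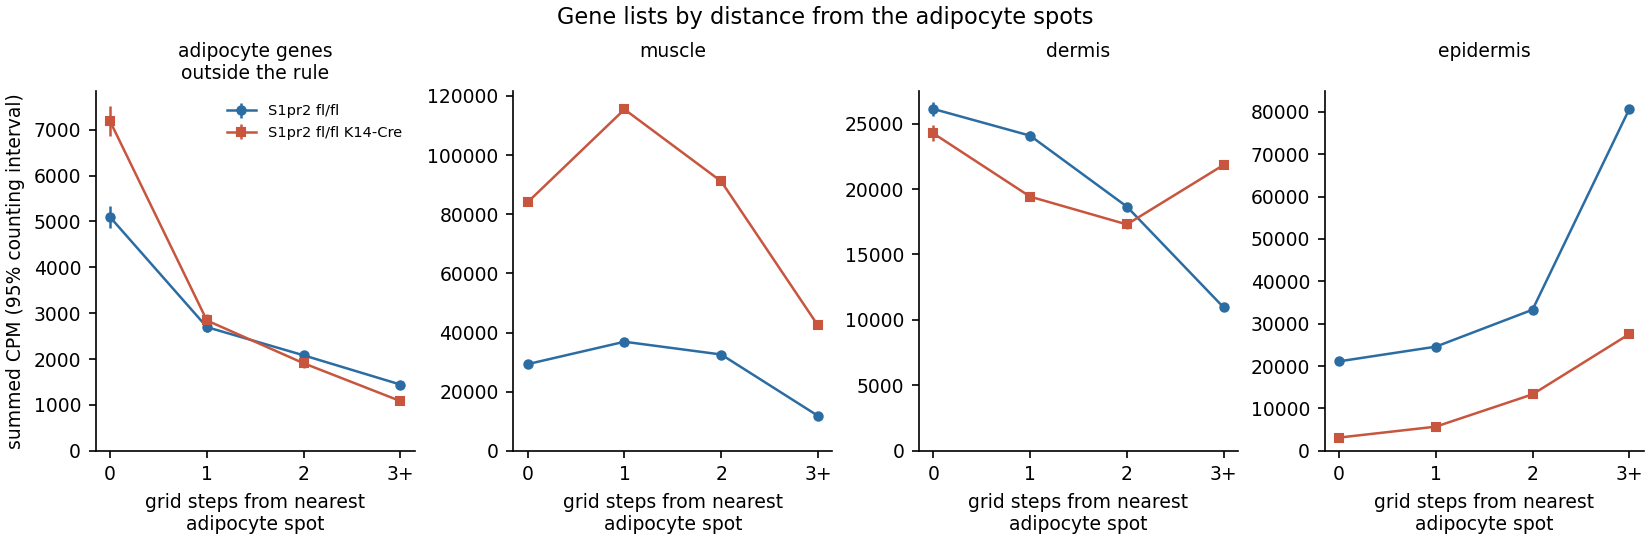
Summed CPM (bars are 95% counting intervals) of 4 gene lists by the number of grid steps from the nearest adipocyte spot, where 0 is the adipocyte spots themselves and 3+ all spots at least 3 steps away. Adipocyte genes fall from 5093 to 1445 CPM and from 7180 to 1085 CPM, muscle genes are highest at 1 step, 36881 and 115436 CPM, and epidermis genes are highest beyond, 80636 and 27549 CPM.

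Muscle genes peaked in the first ring, at 36881 CPM in the fl/fl and 115436 CPM in the K14-Cre section, above the adipocyte spots themselves at 29314 and 84068. Dermis genes had 26119, 24078, 18659 and 10961 CPM with growing distance in the fl/fl section, and 24249, 19420, 17297 and 21839 CPM in the K14-Cre section. Fascia genes had 1741, 1448, 1024 and 491 CPM in the fl/fl section, and 1465, 1011, 1027 and 1020.2 CPM in the K14-Cre section, where the values beyond the adipocyte spots lay close together. Epidermis genes had their lowest sum in the adipocyte spots and their highest, 80636 and 27549 CPM, at 3 or more steps. The median distance of an adipocyte spot to the nearest of the 80 highest muscle spots was 2.65 spot spacings in the fl/fl section and 1.73 in the K14-Cre section, against 5.00 and 4.36 for the remaining spots. To the nearest of the 80 highest epidermis spots it was 5.29 and 4.36, against 3.80 and 3.61. The medians of the remaining spots cover 939 and 794 spots for muscle and 936 and 787 for epidermis. Remaining spots that are themselves among the 80 highest were left out there, while adipocyte spots among the 80 highest muscle spots counted at a distance of 0.

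Along the sections the adipocyte genes varied less than the muscle genes did. Each section was divided along its length into 4 stretches of 20 adipocyte spots. The 24 adipocyte genes ranged from 3934 to 6812 CPM over the fl/fl stretches and from 6023 to 8338 CPM over the K14-Cre stretches, and in all 4 stretches of both sections they lay above the remaining spots. Lipogenesis genes ranged from 6892 to 9090.0 CPM and from 8437 to 14900.2 CPM. Complement genes ranged from 3377 to 5325 CPM and from 2943 to 4429 CPM. Muscle genes ranged from 3458 to 53919 CPM and from 28269 to 113397 CPM, and the stretch at the right end of each section as mapped was the lowest. The 40 spots with the highest marker share had 5976 CPM of the 24 genes against 4371 in the next 40 in the fl/fl section, and 9235 against 5183 in the K14-Cre section.

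Among 2490 genes with at least 50 UMIs over both sets of spots, 158 were higher in the K14-Cre spots (6.35%) and 309 lower (12.4%), by the same measure. With the fast, oxidative and developmental muscle genes left out of the total, 189 were higher and 271 lower. Per UMI of the rule markers without *Car3* 15 were higher and 1185 lower. Among genes with at least 100 UMIs in these spots, the 8 highest were *Myh4*, *Flnc*, *Cyp2e1*, *Casq1*, *Acyp2*, *Car3*, *Actn3* and *Trdn*, of which *Myh4*, *Flnc*, *Casq1*, *Actn3* and *Trdn* encode proteins of the muscle fibre. *Myh4*, the fastest myosin, had 2972 CPM in the fl/fl and 17283 CPM in the K14-Cre adipocyte spots, a log2 ratio of 2.54, with 2.50 in the remaining spots. The 8 lowest were *Hrnr*, *Stfa3*, *Crct1*, *Krt10*, *Lor*, *Fam25c*, *Lypd3* and *Calm4*, most of them genes of the differentiating epidermis. *Krt10*, the suprabasal keratin, had 2145 and 143 CPM, a log2 ratio of −3.90 against −2.98 in the remaining spots.

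The adipocyte genes themselves had a smaller difference. The 24 genes had 5093 CPM (4851 to 5344) in the fl/fl adipocyte spots and 7180 CPM (6856 to 7514) in the K14-Cre ones, a log2 ratio of 0.50 (0.40 to 0.59), where the remaining spots gave −0.12 (−0.18 to −0.07). Of 17 tested, 7 were higher and 1 lower in the K14-Cre spots, with a median of 0.64 against −0.08 over all tested genes. The 7 higher genes also had positive ratios in the remaining spots, from 0.56 (*Adig*) to 1.90 (*G0s2*). The lower gene, *Cebpa*, had 422 and 123 CPM in the remaining spots, and *Dgat2* had 252 and 92.3 CPM. These were the largest falls in CPM of the list in the remaining spots. Per UMI of the rule markers without *Car3*, in place of all UMIs, the log2 ratio of the list was −0.39. That scale rests on markers that chose the spots and moves every gene alike, by −0.88. It therefore turns the sign of any smaller positive ratio and shows nothing about these 24 genes in particular. The K14-Cre spots had more muscle RNA, 84068 against 29314 CPM, and less epidermis RNA, 3129 against 21118 CPM, and their part in the difference was not tested.

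**Figure D5:**
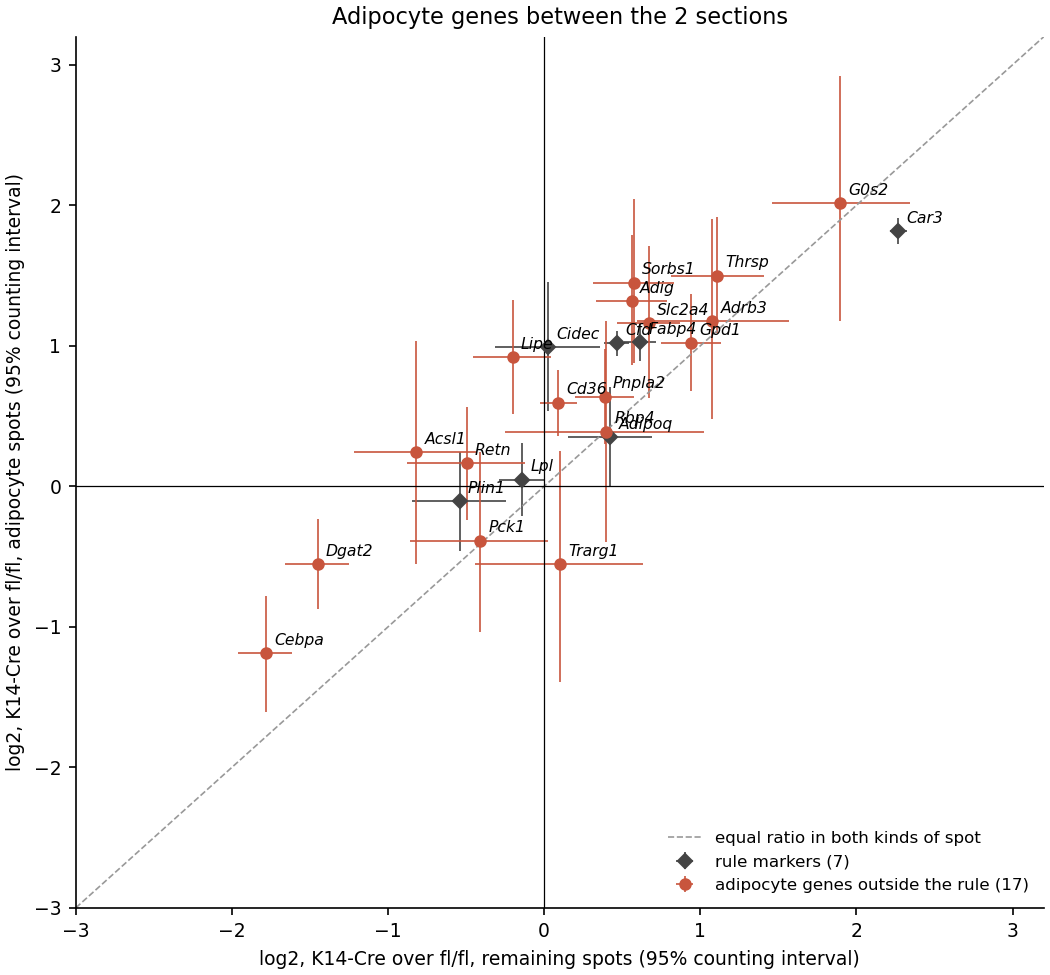
Log2 ratio of K14-Cre over fl/fl CPM in the adipocyte spots (vertical) against the same ratio in the remaining spots (horizontal) for the 7 rule markers and the 17 other adipocyte genes tested, with 95% counting intervals. The dashed line marks equal ratios; *Car3* lies below it at 1.82 against 2.27, and *Cebpa* lies at the lower left, at −1.19 against −1.78.

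*Cyp2e1* had the largest ratio among genes with at least 100 UMIs that were at least 2-fold higher in the adipocyte spots of a section, called enriched in fat here. It had 168 CPM in the fl/fl and 740 CPM in the K14-Cre adipocyte spots, a log2 ratio of 2.14 (1.70 to 2.60), with 1.39 (1.08 to 1.70) in the remaining spots. *Thrsp* had 223 and 632 CPM, a log2 ratio of 1.5 (1.09 to 1.92), with 1.11 in the remaining spots. *Acyp2*, an acylphosphatase, and *Tmem182*, a membrane protein of muscle, were also among the 5 highest of the genes enriched in fat, with 1.88 and 1.46, and *Car3* with 1.82. *Acyp2* entered this set through the K14-Cre section alone, so that the choice itself favours a high ratio. For *Car3* and *Tmem182* the remaining spots had the larger ratio, 2.27 and 2.02.

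The other markers are given as a description, since they ranked the spots. *Cfd* had 5053 and 10242 CPM and *Fabp4*, the fatty acid carrier of adipocytes, 2240.3 and 4567 CPM, log2 ratios of 1.02 and 1.03 against 0.46 and 0.61 in the remaining spots. *Adipoq* had 416 and 531 CPM, *Plin1* 493 and 457 CPM, and *Lpl*, the lipase that frees fatty acids from lipoproteins, 851 and 880.0 CPM, and the intervals of their ratios in the adipocyte spots include no change. *Cidec* had 205 and 407 CPM, a log2 ratio of 0.99 (0.53 to 1.45) that falls just short of 2-fold. An interval that includes no change does not show that the levels were the same. *Hp* and *Retn*, outside the ranking, had log2 ratios of −0.07 (−0.23 to 0.10) and 0.16 (−0.24 to 0.57).

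Among the genes enriched in fat the lowest ratios were those of *Dapk1*, *Hba-a2*, *Clec2d*, *Cebpa* and *Snx2*. *Dapk1*, *Clec2d* and *Snx2* entered this set through the fl/fl section alone, where they are high, so that the choice itself favours a low ratio. *Hba-a2* and *Cebpa* entered it through the K14-Cre section alone. *Hba-a2* is a globin, so for it the name does not mean a gene of fat cells. *Cebpa* had 600 and 264 CPM, a log2 ratio of −1.19 (−1.61 to −0.78), with −1.78 in the remaining spots. *Dapk1*, a kinase linked to cell death, had 263 and 65.9 CPM, −2.0 (−2.84 to −1.24), with −1.0 in the remaining spots. *Hba-a2*, α-globin, had 698 and 275 CPM, −1.34, with −2.42 in the remaining spots, and was detected in 37 and 17 adipocyte spots.

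The functional lists are given beside the same ratio in the remaining spots. Lipogenesis and lipolysis had log2 ratios of 0.44 and 0.51 in the adipocyte spots, and −0.04 and −0.27 in the remaining spots. Moved by the same constant, they are −0.44 and −0.38 per rule marker UMI. Complement had −0.20 (−0.32 to −0.07), with −0.11 in the remaining spots, and 0.0017 when 40 spots were taken from each section. The secreted proteins had −0.47 in sum, with −0.90 in the remaining spots, while the median of their tested genes in the adipocyte spots was 0.28. *Saa3*, with 1558 and 477 CPM, carried the sum. Its log2 ratio was −1.71 in the adipocyte and −1.74 in the remaining spots. Muscle had 1.52, with 1.75 in the remaining spots, and epidermis −2.75, with −1.64. Mast cell genes had −0.83 (−1.32 to −0.36), with 0.02 in the remaining spots, on 124 and 55 UMIs. Of the fl/fl UMIs 70 lay in the last of the 4 stretches, at 714 CPM, where the other stretches had 199, 377 and 75.3 CPM and those of the K14-Cre section 75.1 to 422 CPM. Interferon response genes had −0.64 (−0.93 to −0.36), with −0.01 in the remaining spots, and *Ifi27l2a* had 637 and 388 CPM. Over the 4 stretches the interferon list ranged from 558 to 1316 CPM in the fl/fl section and from 457 to 751 CPM in the K14-Cre section, so the ranges overlap.

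A background of RNA that fat should not express can be read from 1226 olfactory, vomeronasal, taste and trace amine receptor genes. They summed to 2788 CPM in the fl/fl adipocyte spots and 2704 in the remaining spots, and to 4261 and 7606 CPM in the K14-Cre section. On average this is under 1 UMI per receptor gene over the 80 spots of each section, 0.743 and 0.896, and at least 95% of these genes had at most 3 and 4 UMIs. The 3 UMIs of *S1pr2* in the K14-Cre adipocyte spots lie within that range. In the K14-Cre section it was higher in the remaining than in the adipocyte spots, the reverse of the adipocyte genes.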

How the data were processed

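Formalin-fixed back skin was profiled by Visium CytAssist probe hybridization. Per the submitters' processing notes the authors ran Space Ranger 3.0.0 on build mm10, and the deposited values are raw UMI counts of 19465 genes per spot, with no normalization. Spots under 500 UMIs were left out (186 and 34). Doublets have no meaning for spots and were not called.

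UMIs were summed over spots and given as CPM. Exact Poisson intervals (CPM), Clopper-Pearson intervals (shares) and conditional binomial intervals (ratios) are at 95% and cover counting error only. Genes needed 100 UMIs over the kept spots of a section, or 50 over the adipocyte spots of both sections, and a pseudocount of 0.5 UMIs was used for ranking and medians only. Genes were named by rule: the 20 with the highest smaller ratio and the 10 with the lowest larger ratio of both sections, and, with at least 100 UMIs, the 8 highest and 8 lowest between sections and 5 of each among genes at least 2-fold higher in adipocyte spots of a section. Adipocyte and thermogenic lists could be named whole, and of other lists the most abundant gene and the extremes; further list genes were named after their values were seen. Symbols that occur more than once (11) and predicted genes were not named. *Fasn* and *Plin1* promoters belong to a RefSeq transcript start inside the gene's full span. The members and lists were chosen with earlier results of these data known.

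Alternatives were the number of spots, the UMI minimum, other rankings, thinning, mean spot CPM, TMM (edgeR 4.0.16 in R 4.3.3), other count minimums and other totals. Python 3.11.15, numpy 2.4.6, scipy 1.17.1, pandas 2.3.3 and matplotlib 3.10.9 were used. No test between genotypes was possible with 1 section each.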

Additional observations from a re-analysis of the deposited data

Results flagged for a closer look

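Developmental muscle genes went opposite ways in the 2 sections when adipocyte spots were set against the remaining spots, with log2 ratios of 1.32 in the fl/fl section and −2.10 in the K14-Cre section. They rest on 19 and 33 UMIs. In the fl/fl section the ratio was 0.91 (−0.01 to 1.71) without 1 spot and −1.20 when spots were ranked by *Adipoq*, *Plin1* and *Cidec* alone, so its direction was not stable, and the difference between the sections was not tested.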

How the results depend on the processing

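Beside the adipocyte gene ratios and the gene counts, 530 alternative values were computed for lists and single genes, of which 360 stayed within the counting interval of the reported value, 161 moved outside it and 9 turned the sign of a value whose interval leaves out no change. Of these 9, 5 come from the scale of rule marker UMIs, which moves every ratio between the sections by −0.88. It so turns any smaller positive one. The log2 ratio of the 24 adipocyte genes over the remaining spots (1.5 in the fl/fl and 2.12 in the K14-Cre section) was 1.66 and 2.34 with 40 spots, 1.33 and 1.89 with 160, 1.22 and 1.88 ranked by *Adipoq*, *Plin1* and *Cidec*, 1.31 and 2.27 with TMM, and 1.67 and 2.44 without the neighbouring spots (chosen after seeing the data); in the K14-Cre section it was 1.98 with spots thinned to 500 UMIs and 2.02 as the mean spot CPM. Between the sections it was 0.50, and 0.63 with 40 spots, 0.32 with 160, 0.37 thinned and −0.39 per rule marker UMI without *Car3*, a scale also chosen after seeing the data. On that scale lipogenesis was −0.44, lipolysis −0.38, lipid droplet −0.60, *Fasn* −0.26 and *Cdo1* −0.14. With 40 spots developmental muscle was −2.11 and complement 0.0017 between the sections. Ranked by 3 markers, developmental muscle was −1.20 in the fl/fl section, and ranked without *Car3*, muscle was −0.20 in the K14-Cre section. The 548 genes higher in the fl/fl adipocyte spots were 52 thinned, 301 with TMM and 884 at 30 UMIs. The 312 of the K14-Cre section were 190 with 160 spots, 38 thinned, 479 with TMM and 738 at 30 UMIs. The 158 genes higher in K14-Cre adipocyte spots were 99 with 40 spots, 254 with 160, 19 thinned, 66 at 100 UMIs and 15 per marker UMI; the 309 lower were 122, 637, 20, 116 and 1185. TMM moved the median of all genes by −0.19 and 0.15, and the share of calls that were higher from 46.0% to 24.3% and from 28.7% to 42.8%. The causes were not tested, except that thinning and fewer spots leave fewer UMIs. No paired analysis was possible because each genotype has 1 section.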
